A study of Bos taurus with 64 samples.

Results

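The microRNAs (miRNAs) bta-miR-130a, bta-miR-224 and bta-miR-335 (miR-130a, miR-224 and miR-335 from here on), which have been tied to fat cell formation and lipid metabolism, were followed across skeletal muscle of beef and dairy steers. They are 3 of the 1030 names in the deposited table, and all 3 were among the 318 miRNAs with enough counts to test. They had been picked because they stood lower on a concentrate diet than on grass, so their diet differences are given as a description without a test. Breed and feed efficiency are not named in that choice and were tested, though the choice was made with earlier results of these data known. Breed differences within a diet share their libraries with the diet differences within a breed, so they are not fully separate from the choice.

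A miRNA is a short RNA that guides the silencing machinery to messenger RNAs carrying a match to its seed, and so lowers the protein made from them. In preadipocytes, miR-130a represses PPARG, the transcription factor that commits a cell to storing fat. miR-224 has been reported to hold back early adipogenesis, and it lies within GABRE, a gene for a GABA receptor subunit. miR-335 lies within MEST, an imprinted gene whose expression goes with fat cell enlargement. Muscle holds fat cells and their precursors between its fibres, as marbling, beside vessels, connective tissue and blood.

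The study took muscle from Charolais steers, a beef breed, and Holstein-Friesian steers, a dairy breed. Feed intake records came from 90 steers of the beef breed and 77 of the dairy breed, in 2 feeding phases of 70 days separated by 14 days of adaptation. The first diet was cut ryegrass fed fresh, and the next was concentrate, mostly rolled barley, fed to appetite beside a small ration of grass silage. Within each breed and diet, 8 steers of low residual feed intake (RFI, intake below that predicted for size and growth, the efficient class) and 8 of high RFI gave a library, 64 in all. The labels give no age and every concentrate library followed the grass phase, so diet, the order of the phases and the age of the steers cannot be told apart. The 64 libraries came from 59 steers, of which 5 gave a library in each phase.

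Total counts ran from 4795950 to 12245155 per library. Levels are CPM, counts set against a common library total, scaled with TMM factors, which correct for a few abundant miRNAs taking a varying share of the reads. These factors ran from 0.511 to 2.43, and 2 libraries lay outside 0.6 to 2: high-RFI Holstein-Friesian grass replicate 1 and low-RFI Holstein-Friesian concentrate replicate 3. Skeletal muscle miRNAs were abundant, with the 7 listed ones together at 87910 to 333500 CPM on grass and 110100 to 275000 CPM on concentrate. The liver miRNA miR-122 was at 0 in 51 of the 64 libraries. In bulk muscle, fewer cells of a type and less RNA per cell cannot be told apart.

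miR-130a was the most abundant of the 3, at 66.0 ± 15.3 CPM (SD, n = 64), rank 102 of the 318 tested miRNAs. miR-335 averaged 13.1 ± 5.63 CPM at rank 160, and miR-224 averaged 2.67 ± 1.14 CPM at rank 234. Counts per library ran from 187 to 2614 for miR-130a, from 25 to 366 for miR-335 and from 6 to 81 for miR-224. At its median of 19 counts, miR-224 carried a counting error of 22.9%, against 10.5% for miR-335 and 4.64% for miR-130a. The fitted variation between steers beyond counting was 19.97% for miR-130a, 31.4% for miR-224 and 36.5% for miR-335, where the median over all tested miRNAs was 27.0%. miR-130a was therefore the steadiest member, and single-library values of miR-224 were the least precise.

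**Figure D1:**
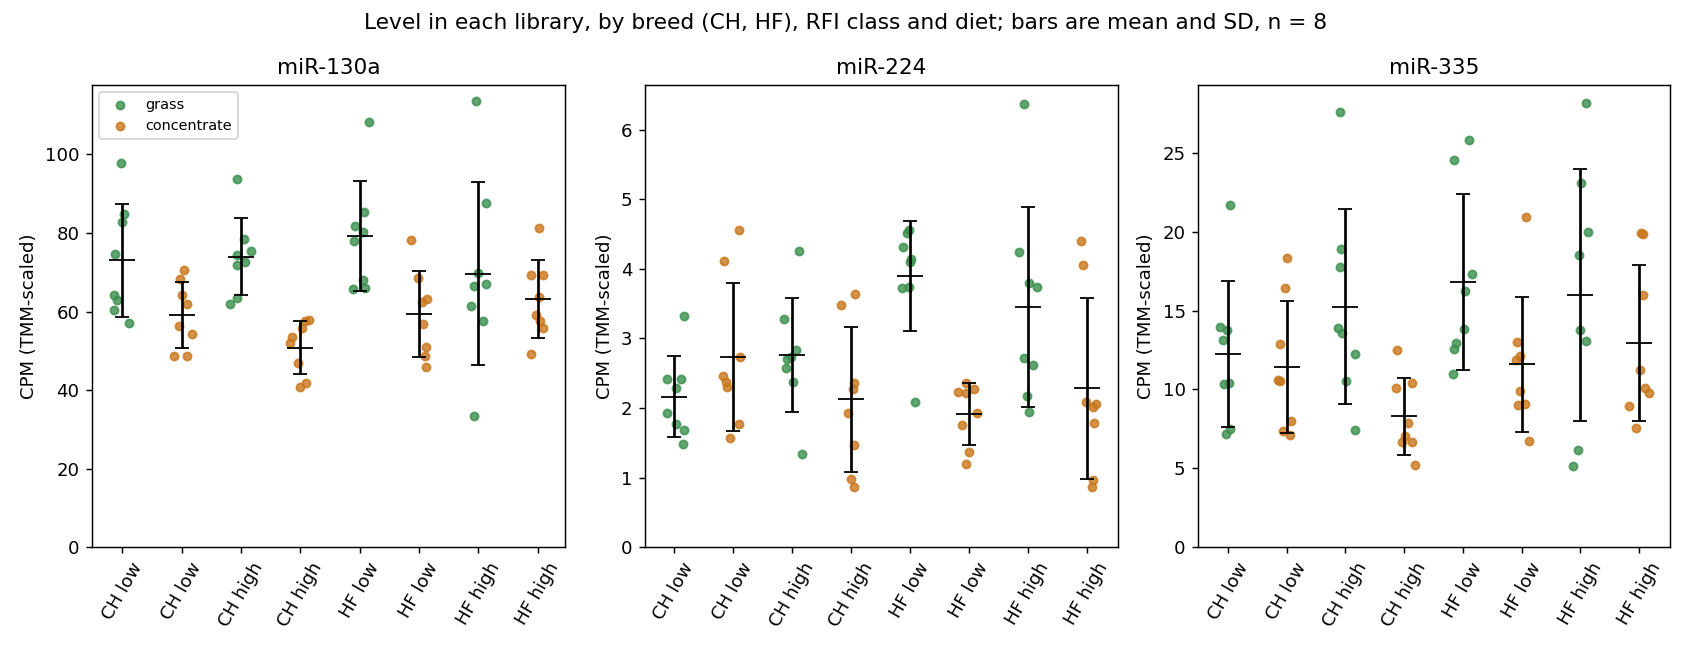
CPM of miR-130a, miR-224 and miR-335 in every library, by breed (CH Charolais, HF Holstein-Friesian), RFI class and diet, with the mean and SD of each group of 8. miR-130a was lower on concentrate in all 4 breed and RFI strata, while miR-224 on grass stood higher in Holstein-Friesian than in Charolais steers.

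miR-130a, the PPARG repressor, had a lower median on concentrate in each of the 4 strata. In low-RFI Charolais steers the lowest, median and highest of 8 libraries were 57.1, 69.4 and 97.7 CPM on grass, and 48.7, 59.1 and 70.6 CPM on concentrate. In high-RFI Charolais steers they were 62.0, 73.5 and 93.6 CPM on grass, and 40.8, 52.8 and 57.7 CPM on concentrate. The high-RFI Charolais libraries of the diets did not overlap, whereas those of low RFI did. miR-130a was picked for this fall, and the share of all miRNAs without overlap is not given here. Nothing is therefore read from the separation. In Holstein-Friesian steers of low RFI the values were 65.8, 79.1 and 108 CPM on grass, and 45.9, 59.7 and 78.2 CPM on concentrate. In those of high RFI they were 33.4, 66.8 and 114 CPM on grass, and 49.1, 61.5 and 81.4 CPM on concentrate. That last stratum overlapped widely, since its grass libraries held both the lowest and the highest value of the series, replicates 6 and 2.

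Over all steers miR-130a averaged 74.0 ± 15.7 CPM on grass and 58.1 ± 9.85 CPM on concentrate (SD, n = 32 each), a log2 difference of -0.35 ± 0.071 (SE). It was below the grass median in 30 of 32 concentrate libraries. By breed the difference stood at -0.42 ± 0.10 (Charolais) and -0.28 ± 0.10 (Holstein-Friesian). Leaving out single libraries, the Charolais value ran from -0.40 to -0.35 and the Holstein-Friesian value from -0.36 to -0.21. The reported Charolais fall was thus larger than in any of these runs. Among the 318 miRNAs miR-130a ranked 43 from the lowest for the average diet difference. The 3 miRNAs were selected on this contrast, in which 16.0% of all tested miRNAs were called lower and 34.0% in either direction.

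miR-335, the MEST-embedded miRNA, was the most variable. In Charolais steers of low RFI its lowest, median and highest values were 7.19, 11.8 and 21.7 CPM on grass, and 7.11, 10.6 and 18.3 CPM on concentrate. In Charolais steers of high RFI they were 7.45, 13.7 and 27.6 CPM on grass, and 5.21, 7.46 and 12.5 CPM on concentrate. Of the Charolais concentrate libraries, 8 of 8 in high RFI and 5 of 8 in low RFI lay below the grass median of their class. In Holstein-Friesian steers of low RFI the values were 10.96, 15.04 and 25.9 CPM on grass, and 6.74, 10.9 and 21.0 CPM on concentrate. In those of high RFI they were 5.18, 16.2 and 28.2 CPM on grass, and 7.54, 10.7 and 19.9 CPM on concentrate. The diets overlapped in every stratum.

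Over all steers miR-335 averaged 15.1 ± 6.17 CPM on grass and 11.1 ± 4.24 CPM on concentrate (SD, n = 32 each), a log2 difference of -0.46 ± 0.14 (SE), with 26 of 32 concentrate libraries below the grass median. Its diet difference was nearly the same in both breeds, at -0.48 ± 0.19 (Charolais) and -0.43 ± 0.19 (Holstein-Friesian). It ranked 32 from the lowest of 318.

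miR-224, the GABRE-embedded miRNA, was the least abundant. In Charolais steers of low RFI the lowest, median and highest values were 1.49, 2.11 and 3.32 CPM on grass, and 1.57, 2.41 and 4.57 CPM on concentrate. In Charolais steers of high RFI they were 1.34, 2.72 and 4.25 CPM on grass, and 0.872, 2.10 and 3.64 CPM on concentrate. The medians of the RFI classes moved in opposite directions there, and the diets overlapped in both. In Holstein-Friesian steers of low RFI the values were 2.09, 4.12 and 4.56 CPM on grass, and 1.19, 2.07 and 2.37 CPM on concentrate. In those of high RFI they were 1.95, 3.23 and 6.37 CPM on grass, and 0.867, 2.04 and 4.40 CPM on concentrate. In low-RFI Holstein-Friesian steers 7 of 8 grass libraries lay above every concentrate library. The share of all miRNAs so separated is not given here either, and miR-224 was picked for its fall.

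The overall diet difference of miR-224 was -0.41 ± 0.14 on the log2 scale (3.07 ± 1.14 CPM on grass, 2.26 ± 1.01 CPM on concentrate; SD, n = 32 each), rank 34 from the lowest of 318. It was made of -0.77 ± 0.19 in Holstein-Friesian steers and -0.043 ± 0.19 in Charolais steers. The Charolais value had the opposite sign under 12 of 74 alternative analyses. The other diet differences of the 3 miRNAs, by breed and on average, kept their sign in each alternative run.

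For all 3 miRNAs the highest mean was in low-RFI Holstein-Friesian steers on grass: 79.2 ± 14.0 CPM for miR-130a, 3.90 ± 0.794 CPM for miR-224 and 16.8 ± 5.59 CPM for miR-335. The lowest mean was in high-RFI Charolais steers on concentrate for miR-130a (50.8 ± 6.81 CPM) and miR-335 (8.31 ± 2.45 CPM), and in low-RFI Holstein-Friesian steers on concentrate for miR-224 (1.92 ± 0.441 CPM; SD, n = 8 each). Neighbouring groups in each order differed by less than the larger of their SDs.

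Breed asked how these miRNAs differ between dairy and beef muscle. miR-224 was higher in Holstein-Friesian than in Charolais steers on grass, at 3.68 ± 1.15 CPM against 2.46 ± 0.753 CPM (SD, n = 16 each). The log2 difference was 0.57 ± 0.19 (SE), or 1.48-fold, with an adjusted p of 0.0152 by the edgeR quasi-likelihood test and Benjamini-Hochberg adjustment over 318 miRNAs. Of 16 Holstein-Friesian libraries 13 were above the Charolais median, and 4 were above the highest Charolais library. The call was kept in 74 of 74 alternatives that tested miR-224, at adjusted p-values from 0.00338 to 0.0248. Most of these left out a single library, often a concentrate library that this comparison does not contrast, so little change could arise. The same grass libraries entered the diet difference that chose miR-224, so the p-value is not fully separate from that choice. Between the breeds on grass 30.2% of all miRNAs were called, and 14.8% called higher, so 1 of 3 members called is no result about the set. miR-130a stood at 0.015 ± 0.10 (adjusted p = 0.928) and miR-335 at 0.27 ± 0.19 (adjusted p = 0.321).

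Fibroblast and smooth muscle miRNAs moved with miR-224 in this comparison. Of the 6 listed, 5 were called higher in Holstein-Friesian steers on grass and 0 lower, with a median log2 difference of 0.62 against 0.0068 over all miRNAs. Their summed level ran from 16430 to 117000 CPM in Holstein-Friesian and from 18160 to 40620 CPM in Charolais grass libraries. The medians of the sum were closer, at 32010 and 28360 CPM. None of the 6 was at 0 throughout. The list holds both arms of miR-199a, so its 6 miRNAs are not separate markers. The myomiRs had 1 of 7 called higher and 2 lower, the endothelial list 1 of 2 higher and the leukocyte list 1 of 6 higher. The part of such cells in the miR-224 difference was not tested.

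On concentrate none of the 3 passed the edgeR test between breeds, where 1.57% of miRNAs were called. miR-130a averaged 61.3 ± 10.3 CPM in Holstein-Friesian and 55.0 ± 8.56 CPM in Charolais steers, a log2 difference of 0.16 ± 0.10 (adjusted p = 0.397). miR-335 averaged 12.3 ± 4.54 and 9.86 ± 3.68 CPM (0.33 ± 0.19, adjusted p = 0.366). miR-224 averaged 2.10 ± 0.954 and 2.43 ± 1.06 CPM (-0.16 ± 0.20, adjusted p = 0.75; SD, n = 16 each). Intervals of 2 SE on either side ran from -0.040 to 0.36 for miR-130a, from -0.064 to 0.72 for miR-335 and from -0.56 to 0.24 for miR-224.

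Averaged over diets, miR-335 was 1.23-fold higher in Holstein-Friesian steers (0.30 ± 0.14, 14.3 ± 6.00 CPM against 11.8 ± 5.02 CPM; SD, n = 32 each), with 22 of 32 libraries above the Charolais median. It did not pass (unadjusted p = 0.0327, edgeR adjusted p = 0.103), where 21.7% of all miRNAs did. It passed in 6 of 75 alternative runs, named next, and with neither DESeq2 nor limma-voom. It passed with total-count scaling (0.43, adjusted p = 0.0235) and upper-quartile scaling (0.36, adjusted p = 0.0358), which move the median of all miRNAs in this comparison by 0.14 and 0.079. It passed with the repeated steers as fixed blocks (0.38, adjusted p = 0.0493). It also passed without the 2 libraries of extreme TMM factor (0.34, adjusted p = 0.047), without low-RFI Charolais grass replicate 4 (0.37, adjusted p = 0.0345) and without high-RFI Holstein-Friesian grass replicate 6 (0.36, adjusted p = 0.0296).

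miR-130a averaged 0.088 ± 0.071 higher in Holstein-Friesian steers over both diets (edgeR adjusted p = 0.362) and miR-224 0.20 ± 0.14 (adjusted p = 0.272). miR-130a passed in 1 of 75 alternative runs. That run left out high-RFI Holstein-Friesian grass replicate 6, whose 33.4 CPM was the lowest of all 64. Without this library miR-130a was higher by 0.15 with an edgeR adjusted p of 0.0389.

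**Figure D2:**
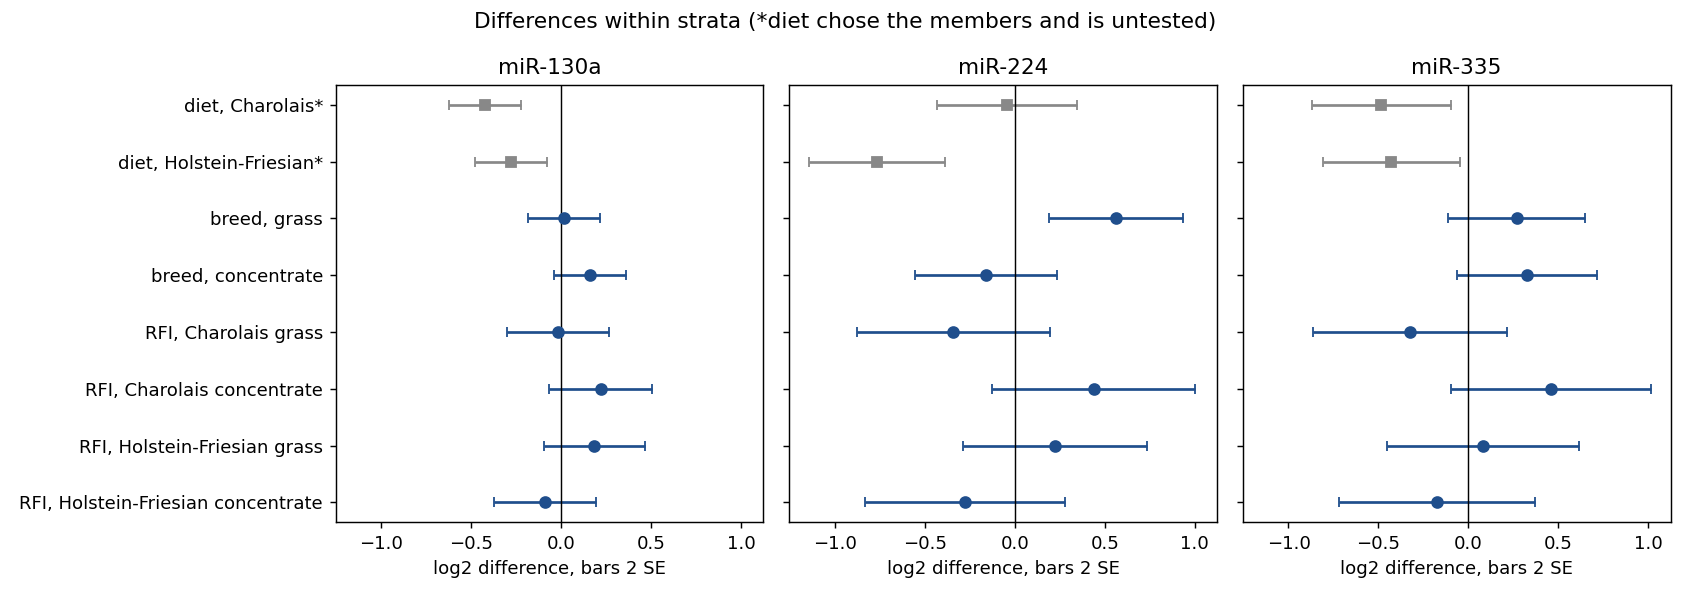
Log2 differences of the 3 miRNAs within strata, with bars of 2 SE: concentrate minus grass (grey squares, which chose the miRNAs and are untested), Holstein-Friesian minus Charolais, and low minus high RFI. The interval of miR-224 between the breeds on grass, centred on 0.57, lies above 0, and every RFI interval includes 0.

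The diet difference was also set side by side between breeds. As a description, since the diet values within each breed are counted among those that chose the miRNAs, the Holstein-Friesian diet difference minus the Charolais one was -0.72 ± 0.27 for miR-224, 0.15 ± 0.14 for miR-130a and 0.056 ± 0.27 for miR-335 on the log2 scale (SE). Over all miRNAs 3.46% were called in this comparison, and nothing is read from it for the 3 members.

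RFI asked whether the miRNAs go with feed efficiency. None of the 3 passed the edgeR test in any breed and diet or on average, where 0.0% of all miRNAs were called in each. None reached an unadjusted p of 0.05 in these 5 comparisons by DESeq2, limma-voom or edgeR with TMM scaling. With total-count scaling 1 did, in Holstein-Friesian steers on concentrate (edgeR unadjusted p = 0.035). There 66 miRNAs did so, and the median over all miRNAs shifted by -0.32. Averaged over strata, low minus high RFI stood at 0.074 ± 0.071 for miR-130a, 0.013 ± 0.14 for miR-224 and 0.011 ± 0.14 for miR-335 (each adjusted p = 0.9997 by edgeR). Intervals of 2 SE ran from -0.067 to 0.22, from -0.26 to 0.29 and from -0.26 to 0.28. Scaled by total counts, the 3 values were -0.045, -0.053 and -0.11, while the median over all miRNAs shifted by -0.12.

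Within strata the widest RFI differences were in Charolais steers on concentrate, where low RFI stood higher in miR-335 (0.46 ± 0.28, 11.4 ± 4.195 CPM against 8.31 ± 2.45 CPM), miR-224 (0.44 ± 0.28, 2.74 ± 1.07 against 2.12 ± 1.04 CPM) and miR-130a (0.22 ± 0.14, 59.1 ± 8.44 against 50.8 ± 6.81 CPM; SD, n = 8 each). All had an edgeR adjusted p of 0.878, and each was above the high-RFI median in 6 of 8 low-RFI libraries. On grass in the same breed the values were -0.32 ± 0.27 for miR-335, -0.34 ± 0.27 for miR-224 and -0.019 ± 0.14 for miR-130a. In Holstein-Friesian steers they were 0.081 ± 0.27, 0.23 ± 0.26 and 0.18 ± 0.14 on grass, and -0.17 ± 0.27, -0.28 ± 0.28 and -0.089 ± 0.14 on concentrate. The smallest unadjusted p over these 4 strata in the reported edgeR fit was 0.104, for miR-335 in Charolais steers on concentrate. The differences of the RFI effect between diets and between breeds had edgeR adjusted p-values from 0.959 to 0.994 for the 3 miRNAs.

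In the reported fit the RFI values of all 3 miRNAs pointed one way in Charolais steers and the other way in Holstein-Friesian steers on each diet. This was noticed after the values were seen and was then tested as a breed by diet by RFI difference. It was -1.28 ± 0.54 for miR-224 (unadjusted p = 0.0215, edgeR adjusted p = 0.457), -1.04 ± 0.54 for miR-335 (unadjusted p = 0.062, adjusted p = 0.519) and -0.51 ± 0.28 for miR-130a (unadjusted p = 0.0754, adjusted p = 0.549). None of the 3 passed in this fit or in any alternative run, and 0.314% of all miRNAs were called.

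Neighbours in the genome and relatives by seed, which are not among the chosen miRNAs, were compared with the members. These lists were drawn up with earlier results of these data known. Over the 64 libraries miR-452 also varied with miR-224 (r = 0.574), so its tests are not fully separate from the choice of miR-224. miR-452 lies beside miR-224 within GABRE in the RefSeq gene table, and it was also higher in Holstein-Friesian steers on grass. There it averaged 1.97 ± 1.03 CPM in Holstein-Friesian and 1.13 ± 0.584 CPM in Charolais steers (SD, n = 16 each), a log2 difference of 0.78 ± 0.25 (edgeR adjusted p = 0.0116, called in 74 of 74 alternatives). On concentrate the breeds stood at 1.201 ± 0.4997 and 1.22 ± 0.608 CPM (0.015 ± 0.26, adjusted p = 0.999). In Holstein-Friesian steers it fell on concentrate by 0.65 ± 0.25 on the log2 scale (edgeR adjusted p = 0.0447, with 24.2% of all miRNAs called), and its Charolais value was 0.12 ± 0.26. That diet call was lost with limma-voom (-0.52, adjusted p = 0.131), with the animal as a random block (-0.46, 0.201) or fixed blocks (-0.64, 0.0508), and without any of 10 single libraries, the weakest without high-RFI Holstein-Friesian grass replicate 2 (-0.51, 0.106). The breed by diet difference of miR-452 was -0.76 ± 0.36 (adjusted p = 0.234). With a median of 10 counts per library, miR-452 was measured less precisely than miR-224.

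**Figure D3:**
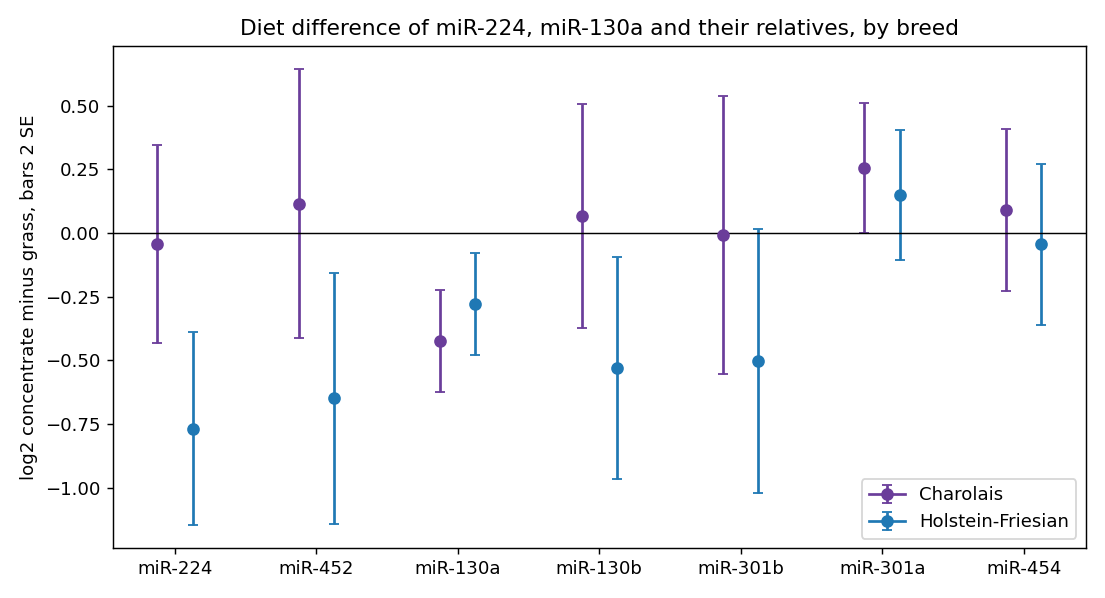
Log2 difference of concentrate minus grass with bars of 2 SE, by breed, for miR-224 and its neighbour miR-452 and for miR-130a and the 4 miRNAs that share its seed. miR-224 and miR-452 were near 0 in Charolais and near -0.77 and -0.65 in Holstein-Friesian steers. In this fit miR-130a was negative in both breeds and miR-301a positive in both, though the sign of miR-301a was not kept under every setting.

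The miR-130 seed family, whose members can bind the same target sites, was not uniform in the reported fit. miR-301a was as abundant as miR-130a (73.9 ± 21.1 CPM) and stood higher on concentrate, at 0.20 ± 0.090 (edgeR adjusted p = 0.076). It passed in 34 of 75 alternatives, and over all 75 the adjusted p-values of these runs ran from 0.0133 to 0.815. Its sign was not kept in each of them. Apart from leaving out single libraries, the average ran from -0.047 to 0.25 and the Holstein-Friesian value from -0.17 to 0.18. Its neighbour within SKA2, miR-454 (5.53 ± 1.75 CPM), stood at 0.024 ± 0.11 (adjusted p = 0.887). The adjacent pair miR-130b (4.86 ± 2.35 CPM) and miR-301b (2.03 ± 1.14 CPM; SD, n = 64 each) stood at -0.23 ± 0.15 and -0.26 ± 0.19 (adjusted p = 0.241 and 0.287). None of the 4 passed for the average diet difference, and none for breed on grass, on concentrate or on average.

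Each of 5 steers gave a grass and a concentrate library, and miR-130a was lower on concentrate in 5 of them, miR-224 in 4 and miR-335 in 4. Their libraries are among those that chose the miRNAs. In the 4 Charolais steers miR-130a went from 78.5 to 56.2, 84.9 to 64.1, 63.4 to 47.0 and 74.4 to 55.9 CPM, and in the Holstein-Friesian steer from 87.7 to 63.8 CPM. These log2 differences lay between -0.41 and -0.48, a narrow range. In the same order, miR-224 went from 2.71 to 2.46, 2.41 to 1.57, 2.38 to 1.47, 3.28 to 3.48 and 2.72 to 2.06 CPM. In the same order, miR-335 went from 27.6 to 12.9, 21.7 to 18.3, 7.45 to 7.07, 12.3 to 6.68 and 6.18 to 19.9 CPM. The single rise of miR-335 was in the Holstein-Friesian steer, whose grass library is one of those with an extreme TMM factor. The Charolais steer listed at the start was classed as high RFI on grass and low RFI on concentrate.

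**Figure D4:**
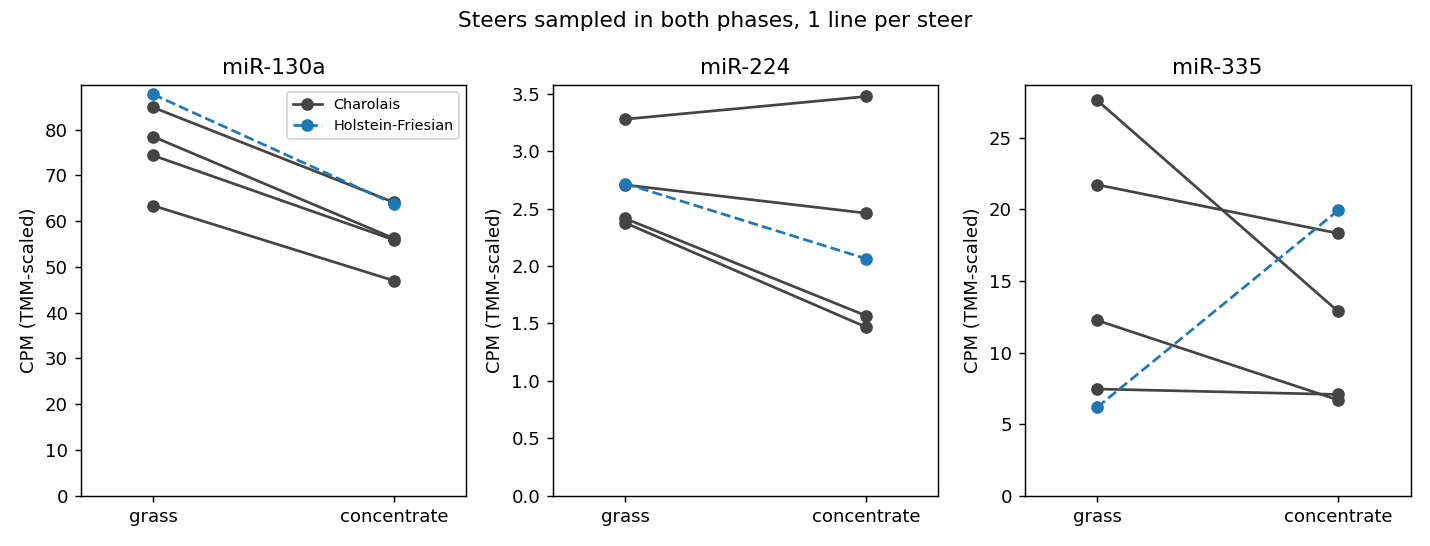
CPM of the 3 miRNAs in the 5 steers sampled on both diets, 1 line per steer, solid for Charolais and dashed for Holstein-Friesian. All 5 lines of miR-130a descend, from between 63.4 and 87.7 to between 47.0 and 64.1 CPM.

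Whether the 3 miRNAs varied together among steers of a group was examined on deviations of log2 CPM from the group means, which do not hold the diet difference. miR-130a and miR-335 had a Pearson r of 0.417 over 64 libraries (permutation p = 0.00532, adjusted over 3 pairs 0.016) and a Spearman rho of 0.348 (permutation p = 0.00816, adjusted 0.0245; two-sided, libraries permuted within groups). The relation was weaker without high-RFI Holstein-Friesian grass replicates 2 and 6, which lay farthest from the median of miR-130a. Without these 2 libraries r was 0.23 (permutation p = 0.0883) and rho 0.28 (permutation p = 0.0372, adjusted 0.0693). Leaving out extremes of miR-130a also narrows its range. Without the 2 libraries of extreme TMM factor, an alternative chosen after seeing the data, r was 0.512 (permutation p = 0.00031, adjusted 0.00093). Within grass r was 0.474 (permutation p = 0.0253, adjusted 0.0759) and within concentrate 0.312 (permutation p = 0.102, adjusted 0.103).

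miR-130a and miR-224 had r = 0.242 (permutation p = 0.0655) and rho = 0.169 (permutation p = 0.204), or r = 0.235 (permutation p = 0.0709) without 2 libraries. miR-224 and miR-335 had r = 0.251 (permutation p = 0.0609, adjusted 0.0655) and rho = 0.26 (permutation p = 0.0506), or r = 0.195 (permutation p = 0.161) without 2 libraries. Neither pair passed over the 64 libraries, which hold 5 steers on both diets. When these steers kept only their grass library, miR-224 with miR-335 passed (r = 0.329, permutation p = 0.0163, adjusted 0.0244; rho = 0.319, adjusted 0.0319), and miR-130a with miR-224 did not (r = 0.247, permutation p = 0.0787). With total-count scaling, under which libraries with a high share of a few abundant miRNAs sink in all others together, r rose to 0.577 for miR-130a with miR-224, 0.507 for miR-130a with miR-335 and 0.395 for miR-224 with miR-335.

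**Figure D5:**
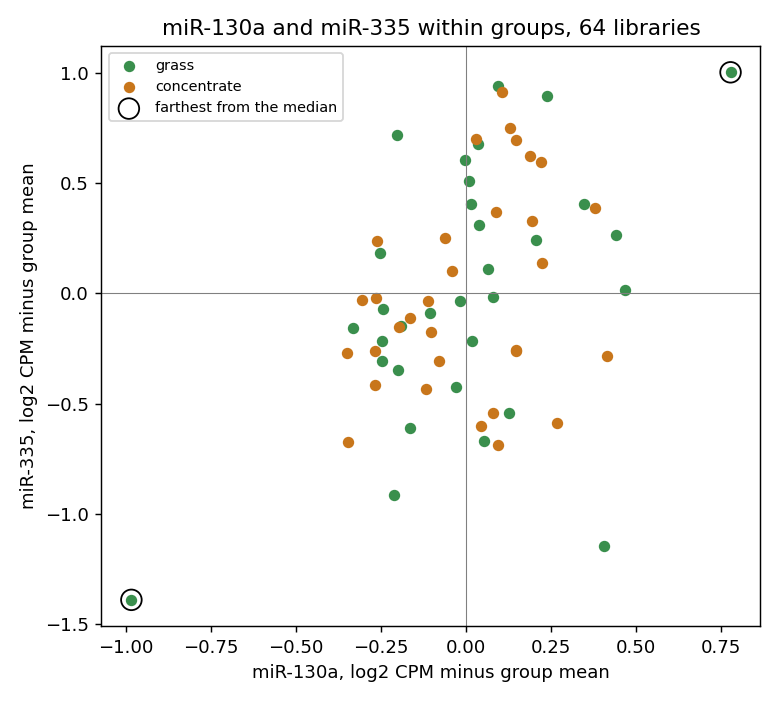
Deviation of miR-335 against that of miR-130a from their group means (log2 CPM), 1 point per library, coloured by diet. The circled libraries, high-RFI Holstein-Friesian grass replicates 2 and 6, lie at opposite ends, and r falls from 0.417 to 0.23 without them.

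Each member had other miRNAs nearer to it in pattern than its fellow members. Over the log2 CPM of all 64 libraries, which share depth and scaling, the nearest to miR-130a were miR-497 (r = 0.76), miR-181c (0.629) and miR-30f (0.608), with miR-335 at rank 10 of 317. Nearest to miR-224 were miR-199c and miR-199a-3p (both 0.696), whose counts are nearly identical and cannot be counted as 2 miRNAs, and miR-214 (0.684), with miR-452 at rank 11 (0.574). miR-199a-3p and miR-214 are miRNAs of fibroblasts. Nearest to miR-335 were miR-495 (0.606), a miRNA of the imprinted DLK1-DIO3 cluster, miR-23a (0.601) and miR-450b (0.599). After removing the group means they were miR-497 (0.672), miR-30f (0.653) and miR-195 (0.63) for miR-130a, and miR-199a-5p (0.619), miR-199b (0.616) and miR-199c (0.605) for miR-224. For miR-335 they were miR-23a (0.645), let-7a-3p (0.613) and miR-186 (0.589). miR-497 and miR-30f were thus among the 3 nearest to miR-130a by both measures, miR-199c among those of miR-224 and miR-23a among those of miR-335.

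A wider list held 46 other adipogenesis and lipid miRNAs, from which the 3 members had been taken out. Of its 42 tested miRNAs, 8 were called higher on concentrate, 5 lower and 29 neither, with a median of -0.0082 against 0.014 over all tested miRNAs. Over all miRNAs, 17.9% were called higher and 16.0% lower. Higher with the smallest p were miR-103, which acts on insulin sensitivity (327 ± 186 CPM on concentrate, 220.2 ± 57.2 on grass, log2 0.55 ± 0.13, adjusted p = 0.0011), miR-93 (0.57 ± 0.14, adjusted p = 0.00164) and miR-17-5p (0.43 ± 0.12, adjusted p = 0.00373). Lower were miR-369-5p of the DLK1-DIO3 cluster (1.82 ± 0.623 against 3.08 ± 1.14 CPM; SD, n = 32 each; -0.75 ± 0.13, edgeR adjusted p = 3.79e-06), miR-128 (-0.37 ± 0.096, adjusted p = 0.00222) and miR-21-5p (-0.37 ± 0.11). The edgeR adjusted p of miR-21-5p was 0.00975, and it lost its call with limma-voom and with the animal as a random block, at up to 0.0623. This split depended on scaling: with total counts, which shift the median of all miRNAs by -0.25, 0 were higher and 19 lower, and miR-103 (0.27), miR-93 (0.27) and miR-17-5p (0.15) lost their calls. With that scaling the members stood at -0.61 (miR-130a), -0.66 (miR-224) and -0.70 (miR-335). The promoters of adipogenesis had 3 of 14 higher and 2 lower, and the repressors 2 of 13 higher and 1 lower.

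Blood markers also moved with diet. Both erythrocyte miRNAs and 5 of 6 leukocyte miRNAs were called higher on concentrate and 0 lower, with summed levels of 300.2 to 11350 CPM on grass and 680.4 to 49570 CPM on concentrate for the former. The summed leukocyte level ran from 255.5 to 1346 CPM on grass and from 367.9 to 2567 CPM on concentrate. The leukocyte list holds both arms of miR-142 and the endothelial pair is both arms of miR-126, so these are not separate markers either. Of the fibroblast and smooth muscle list 1 of 6 was lower, and of the endothelial pair 0 were called by edgeR. Calls within each breed follow, and whether the diet differences of these markers differ between breeds was not tested. In Holstein-Friesian steers 3 of 6 fibroblast and smooth muscle miRNAs were lower, with a median of -0.51 against 0.040 over all miRNAs. There 24.2% of all miRNAs were called by edgeR in either direction. In Charolais steers 0 of 6 were called, with a median of 0.0062 against -0.0061. Both erythrocyte miRNAs were called higher in Charolais and 0 in Holstein-Friesian steers, though their median was positive in both breeds (1.72 and 0.67). The share of all miRNAs called in Charolais steers is not given here, so nothing is read from these counts. The part of such cells in the diet values of the 3 miRNAs was not tested.

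Between breeds the same list had 8 miRNAs higher and 3 lower of 42 in Holstein-Friesian steers on average, where 11% and 10.7% of all miRNAs were called. Higher by edgeR were miR-222 (0.52 ± 0.12, adjusted p = 0.00105), miR-31 (0.91 ± 0.24, adjusted p = 0.00501) and miR-155 (0.44 ± 0.12, adjusted p = 0.00664). Lower by edgeR were miR-22-3p (-0.32 ± 0.084, adjusted p = 0.00459), miR-193b (-0.32 ± 0.091, adjusted p = 0.0072) and miR-29a (-0.19 ± 0.068, adjusted p = 0.0338). The 3 named as higher are listed as adipogenesis repressors, but so is miR-22-3p, and miR-155 is also on the leukocyte list. Of 13 tested repressors 5 were higher and 1 lower, and of 14 tested promoters 3 were higher and 0 lower. For the whole list, the 8 higher became 5 with the repeated steers as fixed blocks. The 3 lower became 6 without low-RFI Holstein-Friesian grass replicate 7. With total counts, which move the median of all miRNAs by 0.14, none of these 3 lower ones passed (miR-22-3p -0.17, miR-193b -0.20, miR-29a -0.047), and miR-29a also failed without any of 15 single libraries. For RFI, 0 of the 42 were called by edgeR on average, where 11 of 318 miRNAs had an unadjusted p under 0.05 by edgeR, 12 by DESeq2 and 9 by limma-voom.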

How the data were processed

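The authors deposited a table of estimated counts per miRNA, not normalized, for 64 libraries; 61 of 1030 names held fractional values (more than 0.001 from a whole number), none of them among the 3 members or their 5 relatives. Counts were rounded, and 1 name with empty cells was left out. The tools named, per the submitters' processing notes, were cutadapt 2.6, edgeR 3.5, FastQC 0.11.8 and R 3.4, with build ARS-UCD 1.2 and no role stated. Aligner and miRNA counter: not given in the sources used here. RNA, per the labels' protocols, came from an RNeasy Plus Universal kit and libraries from a TruSeq stranded RNA kit.

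Tests used edgeR 4.0.16 in R 4.3.3: TMM scaling, filterByExpr over the 8 groups (318 miRNAs kept), a robust quasi-likelihood fit to 8 group means with 56 residual degrees of freedom, and Benjamini-Hochberg adjustment within each contrast at 0.05. The fit was tested on simulated data. Contrasts are Holstein-Friesian minus Charolais, low minus high RFI and concentrate minus grass. Correlations used log2 CPM with a prior count of 2 and 100000 permutations. Alternatives were DESeq2 1.42.0, limma-voom (limma 3.58.1), other scalings and filters, animal blocks, and leaving out each library. Pairing of libraries comes from animal numbers in the labels; the 5 pairs' deviations correlated at 0.165, 0.398, 0.599, 0.288 and -0.111, and the random-block correlation was 0.392.

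Members and lists were chosen with earlier results of these data known. Named miRNAs are the members, their seed family and genomic neighbour, the 3 most correlated with each member, and up to 3 called list miRNAs per direction with the smallest p. Gene names and neighbours come from RefSeq on ARS-UCD 2.0, where 3 of 3 members and 5 of 5 relatives matched; no coordinates are given because the builds differ. Replicates were separate steers. The planned test of the breed by diet difference of the members is not used, because it is made from diet values that chose them.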

Additional observations from a re-analysis of the deposited data

Results flagged for a closer look

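In 24 groups of 8 libraries (8 groups for each of the 3 miRNAs), 4 had a library whose gap to its nearest neighbour was above Dixon's 95% critical value as a share of the group's range. Chance flags about 1 in 20 groups. miR-130a stood at 108.2 CPM in low-RFI Holstein-Friesian grass replicate 2, where the other 7 ran from 65.8 to 85.4 CPM. miR-224 stood at 2.09 CPM in low-RFI Holstein-Friesian grass replicate 7, where the others ran from 3.72 to 4.56 CPM. miR-335 stood at 21.7 CPM in low-RFI Charolais grass replicate 4, where the others ran from 7.19 to 14.0 CPM, and at 21.0 CPM in low-RFI Holstein-Friesian concentrate replicate 7, where the others ran from 6.74 to 13.01 CPM.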

How the results depend on the processing

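With total counts the diet value of miR-130a was -0.61 on average and -0.61 in Holstein-Friesian steers. miR-335 between breeds passed in 6 of 75 alternatives. Among these were total-count scaling (0.43), upper-quartile scaling (0.36) and fixed blocks for the repeated steers (0.38). Another, chosen after seeing the data, left out the 2 libraries of extreme TMM factor (0.34). Leaving out single libraries, miR-335 between breeds ran from 0.26 to 0.37 and miR-130a between breeds from 0.061 to 0.15. The miR-224 breed by diet difference ran from -0.88 to -0.65. A filter at a mean of 10 CPM left miR-224 out. The replicate block changed no other call of the 3 members. Of the adipogenesis list, 8 were higher on concentrate, against 0 with total counts, 4 with no filter, 5 with limma-voom and 4 to 10 leaving out single libraries (4 without high-RFI Charolais concentrate replicate 3). The 5 lower became 19 with total counts and 8 with upper-quartile scaling or no filter. Between breeds the 8 higher became 5 with fixed blocks, and the 3 lower became 0 with total counts and 2 to 6 leaving out single libraries (6 without low-RFI Holstein-Friesian grass replicate 7 and 5 without low-RFI Charolais concentrate replicate 5). For co-variation, r of miR-130a with miR-335 was 0.474 within grass, 0.312 within concentrate and 0.23 without the 2 farthest libraries, none passing. With total counts miR-130a with miR-224 (0.577) and miR-224 with miR-335 (0.395) passed, and the latter also when repeated steers kept only their grass library (0.329). The causes were not tested. Among the 3 members counting error limits miR-224 most, and miR-452 and miR-301b are limited further.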

Other observations

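The breed by diet by RFI difference was also computed for the miRNAs that share the seed of miR-130a, after the members' values had been seen. miR-301a stood at -0.86 ± 0.36 and miR-454 at -0.91 ± 0.45, with edgeR adjusted p-values of 0.457 and 0.479. miR-130b stood at -0.70 ± 0.62 (adjusted p = 0.702) and miR-301b at -0.58 ± 0.74 (adjusted p = 0.802). The neighbour of miR-224, miR-452, stood at -0.95 ± 0.72 (adjusted p = 0.668). None passed, and the median over all 318 miRNAs was -0.12.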
